A study of Mus musculus with 4 samples.

Results

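The 9 genes described here handle iron and heme: hemopexin (Hpx), haptoglobin (Hp), transferrin (Trf), the transferrin receptors Tfrc and Tfr2, the ferritin chains Fth1 and Ftl1, heme oxygenase 1 (Hmox1) and ferroportin (Slc40a1). They are 9 of the 53465 Ensembl gene IDs in the count table. They were chosen by gene name, through a fixed list of IDs, at a time when earlier results on these libraries were known, including the ratios given below. All ratios of these genes are therefore a description, with no test. Of the 9 genes, 7 averaged at least 1 CPM (counts scaled to a common library size, TMM-normalised) over the libraries and were compared together with 12927 genes in all. Hp and Tfr2 did not reach that level.

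The libraries came from Hepa 1-6, a mouse hepatocellular carcinoma cell line, and there were 4 groups of 1 library each. From cells carrying a guide for Usp5 (sgUsp5, genotype labelled Usp5 Knockdown) came the RNA recovered with a YTHDF1 antibody (RIP) and the input RNA. From cells carrying a control guide (sgcontrol, genotype labelled WT) came the same pair of libraries. The input was 10% of each lysate, taken before the antibody was added. USP5 is a deubiquitinase and YTHDF1 a cytoplasmic reader of N6-methyladenosine in mRNA, and the design asked whether the RNA bound by YTHDF1 differs when Usp5 is targeted. The labels do not say whether the guide cells are 1 clone or a pool, no control precipitate was used here, and the levels of Usp5 and Ythdf1 were not analysed here because their IDs are not paired with names. The knockdown label was therefore not checked.

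The libraries held 29898171 (Usp5 guide RIP), 33941019 (control RIP), 31751069 (Usp5 guide input) and 30804293 (control input) counts. With 1 library per group, differences have no replicate check, and the 95% intervals cover counting error only. Libraries scattered more than counting error allows: relative to the binomial variance, squared deviations were 18.4 times as large between the RIP libraries and 57.7 times as large between the inputs (median over genes with a mean log2 CPM of 0 to 6, scaled to that of a chi-square variable). Widened intervals allow for this scatter, but it was measured between the Usp5 guide and control libraries and includes any true difference. It was not measured between RIP and input, nor at levels as high as those of Tfrc and Fth1 (means of 410 and 208 CPM). The widened intervals of these genes may therefore be too narrow. As a second measure of scatter, each ratio is set beside the 5th to 95th percentile of the same ratio in the 500 genes of nearest read number. For Tfrc between the inputs that range was -0.51 to 0.34, wider than its widened interval of -0.28 to 0.18. To be counted as higher or lower, a gene needed a 2-fold or larger ratio with a counting interval clear of no difference.

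Hepatocytes secrete transferrin, which carries iron in plasma, and hemopexin and haptoglobin, which bind free heme and hemoglobin. Cells take up iron-loaded transferrin through TFRC, store iron inside ferritin shells built of the FTH1 and FTL1 chains, and export it through ferroportin. Heme oxygenase 1 breaks heme down and frees its iron. Translation of ferritin mRNAs and the stability of Tfrc mRNA are set by iron regulatory proteins that bind stem-loops in their untranslated regions. TFRC mRNA has been described as a YTHDF1 target in human carcinoma cells.

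The iron uptake, storage and export genes Tfrc, Fth1, Ftl1 and Slc40a1, the plasma carriers Hpx and Trf, and Hmox1 had reads in all 4 libraries. Tfrc, the receptor for iron-loaded transferrin (ENSMUSG00000022797, chr16:32608896-32632794 in GRCm38.p6), had 227.9 CPM in Usp5 guide RIP and 189.2 CPM in control RIP, against 600.8 CPM in the Usp5 guide input and 621.9 CPM in the control input. Both inputs lay well above both RIP libraries. Fth1, the ferritin chain that oxidises iron (ENSMUSG00000024661, chr19:9980600-9985111), had 125.4 CPM in Usp5 guide RIP and 137.7 CPM in control RIP, against 277.6 CPM in the Usp5 guide input and 289.7 CPM in the control input. As for Tfrc, the RIP libraries and the inputs did not overlap.

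Ftl1, the ferritin chain that supports the iron core (ENSMUSG00000050708, chr7:45457944-45459886), had 60.9 CPM in Usp5 guide RIP and 62.0 CPM in control RIP, against 45.9 CPM in the Usp5 guide input and 68.5 CPM in the control input. Its RIP values lay between the 2 inputs. Slc40a1, the iron exporter (ENSMUSG00000025993, chr1:45908070-45926532), had 59.3 CPM in Usp5 guide RIP and 63.1 CPM in control RIP, against 45.0 CPM in the Usp5 guide input and 57.1 CPM in the control input. Both of its RIP values were above both inputs. Mouse ferritin genes have many processed copies, and how reads with several matches were counted is not given in the sources used here, so reads of Fth1 and Ftl1 may be shared or lost. Levels of different genes are not ranked here, because no transcript lengths were used and longer RNAs give more reads.

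Hpx, the heme carrier of plasma (ENSMUSG00000030895, chr7:105591611-105600116), had 6.75 CPM in Usp5 guide RIP and 34.1 CPM in control RIP, and 9.56 CPM in the Usp5 guide input and 37.0 CPM in the control input. Here the 2 guides were set apart, with both Usp5 guide libraries below both control libraries. Trf, the iron carrier of plasma (ENSMUSG00000032554, chr9:103208876-103230286), had 3.94 CPM in Usp5 guide RIP and 11.0 CPM in control RIP, and 8.45 CPM in the Usp5 guide input and 13.5 CPM in the control input. Its Usp5 guide libraries were again the lowest of the 4, with 125 and 260 reads in RIP and input, against 391 and 386 reads with the control guide. Hmox1 (ENSMUSG00000005413, chr8:75093618-75100593) had 3.0 CPM in Usp5 guide RIP and 6.25 CPM in control RIP, against 11.1 CPM in the Usp5 guide input and 12.8 CPM in the control input. Its 95 reads in Usp5 guide RIP were the fewest of any of the 7 compared genes in any library.

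**Figure D1:**
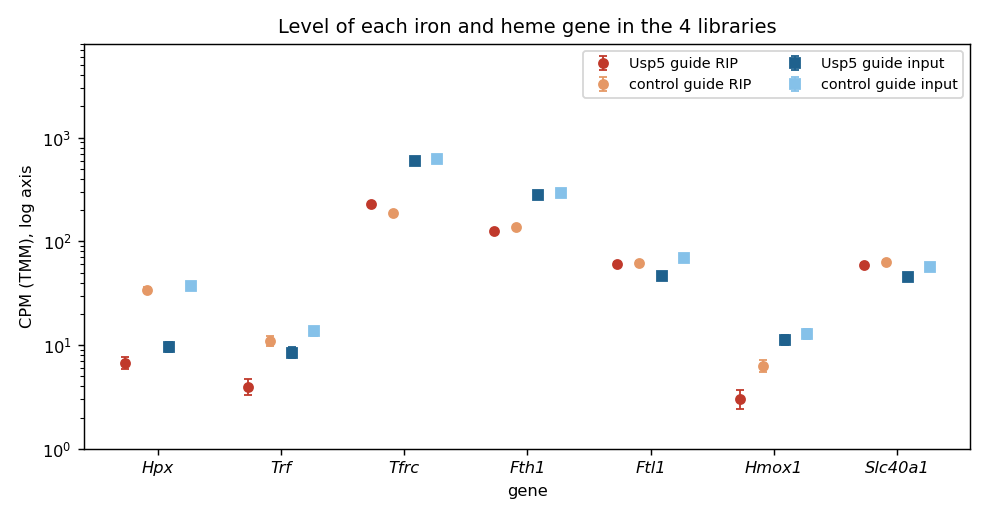
CPM (TMM-normalised, log axis) of the 7 compared iron and heme genes in Usp5 guide RIP, control RIP, Usp5 guide input and control input, with exact Poisson 95% intervals for counting error. Tfrc and Fth1 have both RIP values below both inputs, whereas Hpx has both Usp5 guide values (6.75 and 9.56 CPM) below both control values (34.1 and 37.0 CPM).

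Hp, the hemoglobin carrier of plasma (ENSMUSG00000031722, chr8:109575128-109579172), and Tfr2, a second transferrin receptor that is prominent in hepatocytes (ENSMUSG00000029716, chr5:137569822-137588081), mark liver parenchyma in the animal. Tfr2 had 0 reads in all 4 libraries. Hp had 17 reads in Usp5 guide RIP and 0 reads in control RIP and in both inputs. Where no read was found, as many as 3 counts are still possible, a level of 0.0841 to 0.105 CPM depending on the library. The observed level of Hp in Usp5 guide RIP (0.536 CPM) was 6.38-fold above that limit in control RIP and 5.50-fold above it in the Usp5 guide input. These are not minimum folds, because they leave out the counting error of the Hp reads (interval 0.313 to 0.859 CPM). Divided by the scatter of the RIP libraries, these 17 reads amount to 0.926 independent units, fewer than 1. Of the 4 genes here that mark hepatocytes, Tfr2 and Hp were thus at or near 0, while Hpx and Trf were read in all 4 libraries.

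The first question was which of these RNAs the YTHDF1 antibody recovered. None of the 7 compared genes was counted as higher in RIP than in input in either line. In Usp5 guide cells 4 were counted as lower (Tfrc, Fth1, Hmox1 and Trf), and over all 12927 genes 13.8% were counted as lower and 15.8% as higher. Scaled by library totals, 3 were counted as lower there, and Trf was under 2-fold (log2 ratio -0.97). In control cells 3 were counted as lower (Tfrc, Fth1 and Hmox1), beside 15.2% lower and 18.2% higher over all genes (1967 and 2356 genes). With library totals, 1518 genes were lower and 2939 higher in control cells, and Tfrc was the 1 gene of the 7 that was still counted there, with Fth1 and Hmox1 under 2-fold (log2 ratios -0.89 and -0.85). The median log2 ratio of the 7 genes was -1.10 in Usp5 guide cells and -0.30 in control cells, beside 0.02 and 0.03 over all genes.

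Tfrc stood lowest of the 7 in control cells and next to lowest in Usp5 guide cells. Its RIP level was 2.64-fold below input in Usp5 guide cells, a log2 ratio of -1.40 (counting interval -1.44 to -1.36, widened interval -1.61 to -1.18). In control cells it was 3.29-fold below input, a log2 ratio of -1.72 (counting interval -1.76 to -1.68, widened interval -1.94 to -1.49). Both ratios lay under the 5th percentile of genes of like read number, which was -1.09 in Usp5 guide cells and -1.28 in control cells. A transcript described as a YTHDF1 target elsewhere was thus under-represented in the YTHDF1 precipitate relative to input in both lines.

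Fth1 was 2.21-fold below input in Usp5 guide cells, with a log2 ratio of -1.15 and a widened interval of -1.45 to -0.83. In control cells it was 2.1-fold below input, with a log2 ratio of -1.07 and a widened interval of -1.37 to -0.77. The first value was under the 5th percentile of genes of like read number (-1.04), the second inside their range (5th percentile -1.28). With widened intervals Tfrc and Fth1 were the 2 genes that were still counted as lower in each line, beside 6.3% of all genes in Usp5 guide cells and 7.97% in control cells. At the level of these 2 genes the widened intervals may be too narrow.

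Ftl1, whose protein assembles into the same shell as FTH1, did not share the ratio of Fth1. Its log2 ratio was 0.41 in Usp5 guide cells (widened interval -0.24 to 1.11) and -0.15 in control cells (-0.71 to 0.45), where it changed sign to 0.04 with library totals as the scale. Set against each other within the same libraries, which no scaling factor can alter, the RIP over input ratio of Ftl1 exceeded that of Fth1 by 2.93-fold in Usp5 guide cells (log2 difference 1.55, widened interval 0.86 to 2.25). In control cells the excess was 1.90-fold (log2 difference 0.93, widened interval 0.31 to 1.55). Both intervals excluded equal ratios, but they may be too narrow at the level of Fth1. In control cells the ratios of both genes were inside the range of genes of like read number. Reads of both ferritin genes may also be shared or lost, and the effect of this on the difference was not tested.

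Slc40a1 and Ftl1 had the highest ratios of the 7 genes in Usp5 guide cells, and Slc40a1 the highest in control cells. The log2 ratio of Slc40a1 was 0.40 in Usp5 guide cells (widened interval -0.26 to 1.10) and 0.14 in control cells (-0.46 to 0.79), both under 2-fold and inside the range of genes of like read number. Within the same libraries its ratio exceeded that of Tfrc by 3.47-fold in Usp5 guide cells (log2 difference 1.80, widened interval 1.13 to 2.47) and by 3.63-fold in control cells (log2 difference 1.86, widened interval 1.24 to 2.49). Relative to input, the RNA of Slc40a1 was therefore better represented in the precipitate than that of Tfrc in both lines. This is 1 pair of 21, and of its 2 genes only Tfrc was outside the range of genes of like read number. Of the 21 pairs among the 7 genes, 6 had a widened interval that excluded equal ratios in Usp5 guide cells and 8 in control cells. The share of such pairs among all genes was not computed, so these counts have no background beside them. Most of these pairs include Tfrc or Fth1, whose widened intervals may be too narrow.

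**Figure D2:**
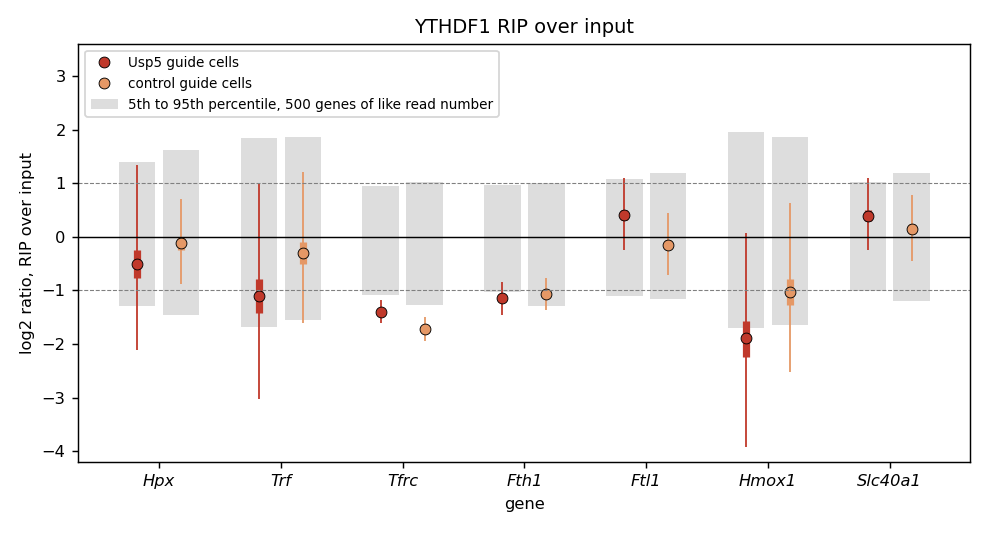
Log2 ratio of YTHDF1 RIP over input for the 7 compared genes in Usp5 guide cells and control guide cells (circles), with counting intervals (thick lines), widened intervals (thin lines) and the 5th to 95th percentile of the 500 genes of nearest read number (grey bars). Dashed lines mark 2-fold. Tfrc lies below the grey bar in both lines (log2 ratios -1.40 and -1.72), while Ftl1 and Slc40a1 lie inside it.

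The genes with few reads were less certain. Hmox1 was 3.70-fold below input in Usp5 guide cells (log2 ratio -1.89, widened interval -3.92 to 0.07) and 2.04-fold below input in control cells (log2 ratio -1.03, widened interval -2.53 to 0.63). The first lay under the 5th percentile of genes of like read number (-1.71) and the second inside their range. Trf had log2 ratios of -1.10 in Usp5 guide cells (widened interval -3.04 to 1.01) and -0.30 in control cells (-1.61 to 1.21). Hpx had log2 ratios of -0.50 in Usp5 guide cells (widened interval -2.11 to 1.35) and -0.12 in control cells (-0.88 to 0.72), the last turning to 0.06 with library totals. For Trf and Hpx both values were inside the range of genes of like read number.

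**Figure D3:**
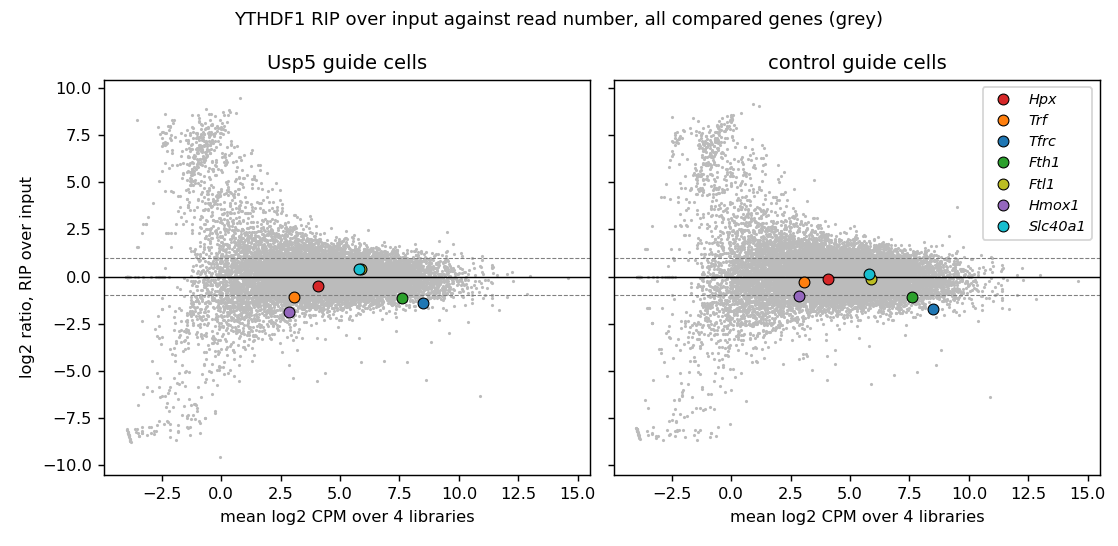
Log2 ratio of YTHDF1 RIP over input against mean log2 CPM over the 4 libraries for all 12927 compared genes (grey) and the 7 iron and heme genes (coloured), in Usp5 guide cells (left) and control guide cells (right). The grey cloud widens at low read number, where Hmox1 and Trf lie, and is narrower around Tfrc and Fth1. Tfrc lies under the 5th percentile of genes of like read number in both panels, Fth1 in the left one.

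The genes whose pattern over the libraries was most like that of Tfrc were looked up among all those of like level. Among 902 genes within 2-fold of its mean CPM, ENSMUSG00000034484 was nearest (Euclidean distance 0.0835 between log2 CPM centred per gene, 4 libraries), with 5285 and 5139 reads in Usp5 guide and control RIP and 13198 and 13599 reads in the inputs of the same lines. The next was ENSMUSG00000016018 (distance 0.224), with 5042 and 5748 reads in the RIP libraries and 14384 and 14816 reads in the inputs. The next after that lay at a distance of 0.226. The 3 genes were chosen for this likeness, so that their low RIP values follow from the choice.

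Whether the abundance of these RNAs differed with the Usp5 guide was asked in the inputs and, separately, in the RIP libraries. In the inputs 1 of the 7 genes, Hpx, was counted as lower and 0 as higher, beside 12.2% lower and 12.4% higher over all genes. In the RIP libraries 3 were counted as lower (Hpx, Trf and Hmox1) and 0 as higher, beside 4.64% lower and 4.53% higher over all genes. The median log2 ratio of the 7 genes was -0.34 in the inputs and -0.13 in the RIP libraries, beside -0.01 over all genes in each.

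Of the 7 compared genes, Hpx differed most between the guides in both fractions. In the inputs it had 294 reads with the Usp5 guide and 1057 reads with the control guide, 3.87-fold lower, a log2 ratio of -1.95 (counting interval -2.15 to -1.77, widened interval -3.72 to -0.49). In the RIP libraries it had 214 and 1218 reads with the Usp5 and the control guide, 5.05-fold lower, a log2 ratio of -2.34 (counting interval -2.55 to -2.13, widened interval -3.38 to -1.43). Both values lay under the 5th percentile of genes of like read number, -1.21 in the inputs and -0.62 in the RIP libraries. In such bulk libraries, fewer cells with the RNA and less RNA per cell cannot be told apart.

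Trf had a log2 ratio of -1.47 between the RIP libraries, 2.77-fold lower with the Usp5 guide (counting interval -1.78 to -1.18, widened interval -2.97 to -0.18), under the 5th percentile of genes of like read number (-0.88). Between the inputs its log2 ratio was -0.68 (widened interval -2.79 to 1.27), inside the range of such genes (5th percentile -1.65). With widened intervals Hpx was counted in the inputs, beside 0.913% of all genes counted as lower, and Hpx and Trf were counted in the RIP libraries, beside 0.596%. Both plasma carriers that were compared had lower values with the Usp5 guide in both fractions, Trf by less than 2-fold in the inputs. This direction was not particular to them, as log2 ratios were below 0 for all 7 genes in the inputs and for 6 in the RIP libraries. Hp, the plasma carrier that was not compared, had 17 reads in Usp5 guide RIP and 0 reads in control RIP.

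Hmox1 was 2.08-fold lower with the Usp5 guide in the RIP libraries. That log2 ratio, -1.06 with a widened interval of -2.88 to 0.53, was below the 5th percentile of genes of like read number (-0.88). In the inputs its log2 ratio was -0.19, with a widened interval of -2.09 to 1.68. Its 95 and 223 reads in Usp5 guide and control RIP contrasted with 343 and 364 reads in the inputs. Genes of like read number were at least 2-fold apart in 33.6% of cases in the inputs and 7.6% in the RIP libraries.

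The 4 compared genes of iron uptake, storage and export were within 2-fold between the guides. Tfrc had log2 ratios of -0.05 in the inputs (widened interval -0.28 to 0.18), which turned to 0.01 with library totals, and 0.27 in the RIP libraries (0.06 to 0.48), a value inside the range of genes of like read number (95th percentile 0.30). Fth1 had log2 ratios of -0.06 in the inputs (widened interval -0.40 to 0.28), which turned to 0.003 with library totals, and -0.13 in the RIP libraries (-0.40 to 0.13). Ftl1 had log2 ratios of -0.58 in the inputs (widened interval -1.39 to 0.22) and -0.02 in the RIP libraries (-0.42 to 0.36). Slc40a1 had log2 ratios of -0.34 in the inputs (widened interval -1.19 to 0.49) and -0.09 in the RIP libraries (-0.48 to 0.30). All 4 genes were also inside the range of genes of like read number in both fractions.

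**Figure D4:**
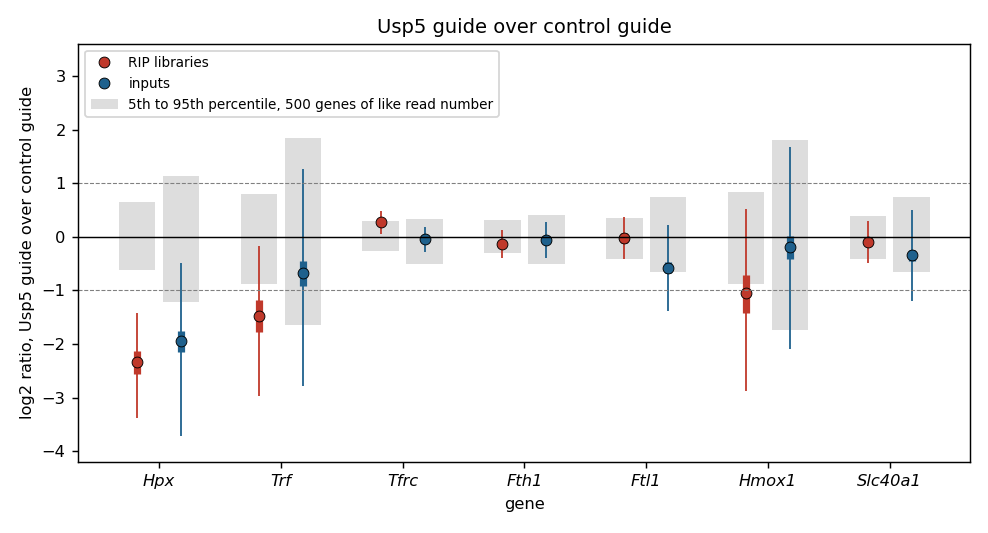
Log2 ratio of the Usp5 guide over the control guide for the 7 compared genes in the RIP libraries and the inputs (circles), with counting intervals (thick lines), widened intervals (thin lines) and the 5th to 95th percentile of the 500 genes of nearest read number (grey bars). Dashed lines mark 2-fold. Hpx lies below the grey bars in both fractions (log2 ratios -2.34 and -1.95), Trf and Hmox1 in the RIP libraries only, and the other 4 genes lie inside them.

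Last, the RIP over input ratio of Usp5 guide cells was divided by that of control cells. None of the 7 genes was counted (0 of 7), beside 13.4% higher and 13.8% lower over all genes, and all 7 were inside the range of genes of like read number. The log2 values were between -0.86 for Hmox1 and 0.55 for Ftl1. Tfrc, with the most reads, had a log2 value of 0.32 (counting interval 0.26 to 0.37, widened interval 0.01 to 0.62), so that its under-representation in RIP was smaller in Usp5 guide cells by 1.25-fold. Genes of like read number spanned -0.35 to 0.57 between the 5th and 95th percentile. For Hpx, which was lower with the Usp5 guide in both fractions, the value was -0.38 (counting interval -0.66 to -0.10, widened interval -1.98 to 1.26), a difference beyond counting error but within the scatter between libraries.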

How the data were processed

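The table deposited by the authors holds unnormalised read counts, with a row for each Ensembl gene ID and a column for each of the 4 libraries. The submitters' processing notes name HISAT2 2.1.0, featureCounts 1.6.3 and the mm10 genome. The annotation release, the strand setting and the handling of multiple matches and duplicates were not given in the sources used here. No molecular identifiers are described, so reads are not independent molecules. Symbols of the 9 genes come from the list that defines them; positions come from RefSeq (GRCm38.p6, matched by symbol). That table pairs 0 of its 49997 genes with Ensembl IDs, so a wider list of iron and heme genes, cell type markers, Usp5 and Ythdf1 were not analysed here.

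Counts were scaled by TMM factors (edgeR 4.0.16, R 4.3.3; 0.926 to 1.06). Log2 ratios used 0.5 added counts in proportion to library size. Counting intervals were exact binomial (Clopper-Pearson) for the reads of 2 libraries, or came from summed reciprocal counts for ratios of ratios and differences between genes. Widened intervals first divided counts by the measured scatter. No test was made: each group held 1 library. The code was tested on simulated data. The genes, the lists and the settings were chosen with earlier results of these data known; the genes named are the 9 members and, for Tfrc, the nearest genes by distance.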

Additional observations from a re-analysis of the deposited data

Results flagged for a closer look

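In 2 cases the same ratio pointed in opposite directions in the 2 groups, each of 1 library pair. These differences were not tested. For Tfrc the Usp5 guide over control ratio was 0.27 on the log2 scale in the RIP libraries and -0.05 in the inputs, a difference of 0.32, and the input value changed sign with library totals (0.01). For Ftl1, RIP over input was 0.41 on the log2 scale in Usp5 guide cells and -0.15 in control cells, a difference of 0.55 (widened interval -0.29 to 1.38), and the control value changed sign with library totals (0.04).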

How the results depend on the processing

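The 35 log2 ratios (7 genes, 5 comparisons) were recomputed under each alternative that can move a ratio, which leaves out the filters and the rule without an interval. Of the 203 values, 170 stayed within the counting interval of the reported one, 33 moved outside it, and no ratio of a counted gene changed sign. Uncounted ratios changed sign in 4 cases with library totals (Fth1 and Tfrc between the inputs at 0.003 and 0.01, Ftl1 and Hpx for RIP over input in control cells at 0.04 and 0.06). They did so in 2 cases with a replicate block (Ftl1 for RIP over input at 0.13, Tfrc for the guide at 0.11). The reported count of genes past the 2-fold rule was 4 for RIP over input in Usp5 guide cells, 3 in control cells, and 3 (RIP libraries) and 1 (inputs) for the Usp5 guide over control. Library totals moved the median log2 RIP over input of all genes from 0.02 to 0.15 in Usp5 guide cells and from 0.03 to 0.21 in control cells, and left 1 of the 7 genes counted in control cells (Tfrc, -1.53), with Fth1 at -0.89 and Hmox1 at -0.85. Widened intervals left 2 genes counted in Usp5 guide cells. The edgeR block fits added no replication, as both fractions of a line shared a lysate. With the fraction as replicate block, 2 genes were at least 2-fold lower with the Usp5 guide (Hpx -2.14, Trf -1.07), against 1 in the inputs alone, beside 7.40% of all genes. With the cell line as block, 3 were this much lower in RIP (Tfrc -1.56, Hmox1 -1.46, Fth1 -1.11), beside 12.1%. Over all genes, the numbers counted as higher and lower were 2046 and 1783 for RIP over input in Usp5 guide cells, 2356 and 1967 in control cells, 585 and 600 for the guide in the RIP libraries, 1597 and 1583 in the inputs, and 1731 and 1779 for the ratio of enrichments. In the same order, widened intervals gave 620 and 814, 785 and 1030, 70 and 77, 102 and 118, and 161 and 147. A mean of at least 5 CPM (9919 genes) gave 1093 and 997, 1390 and 1203, 110 and 117, 657 and 631, and 740 and 787. At least 10 reads (18511 genes) gave 4179 and 2811, 4408 and 3070, 2116 and 2063, 2785 and 2832, and 2501 and 2547. With at least 10 reads in place of 1 CPM, Hp was also counted as higher in Usp5 guide RIP. All of its 17 reads were in that library, so it passed the filter only through them and the call follows from the filter. Divided by the scatter of the RIP libraries they amount to 0.926 units. Ranges over 250 or 1000 genes of like read number left 7 and 8 of the 35 ratios outside, beside 8 with 500. Such a range holds 90% of the genes of like read number by construction. The 35 ratios come from the same 4 libraries and are not independent, so these counts are a description. Depth limits Tfr2 and Hp, with no or few reads, and widens the intervals of Hmox1 and Trf.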
